A study of Mus musculus with 6 samples.

Results

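Interleukin-10 (IL-10), the related cytokine IL-24 and 5 genes tied to their control and reception in T cells were followed in stimulated CD4+ T cells of the mouse spleen. The 7 genes were Il10, Il24, Maf, Prdm1, Nfil3, Il10ra and Il27ra, of 22180 genes measured. They were named with earlier results of these data known, and the probe set that stands for each was chosen by its mean level, as the brightest over the 6 arrays that the platform annotation gives to that gene alone. Of the 7, 6 had a single probe set and Maf had 2. No filter on low levels was used, so all 7 were tested.

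The cells were isolated with magnetic beads, kept in RPMI medium with 10% serum and stimulated by antibodies to CD3 and CD28 at 1 µg/ml over 12 hours. ConCM received control conditioned medium, PlGFCM received medium with placental growth factor (PlGF), a ligand of the VEGF family, and IL6_ConCM received the control medium plus IL-6 at 20 ng/ml. The PlGF medium came from clones of HEK-293, a human embryonic kidney line, that overexpress the PlGF2 form, and all 3 groups thus share antibody stimulation and medium conditioned by cells. Each group held 2 replicate samples with 1 array each, and strain, age, sex and the amount of PlGF are not given in the labels. Whether replicates came from separate mice is not stated either, so p-values reflect only how far these samples spread, and that spread may be technical. The PlGFCM samples, however, differed in Xist, as given below, so the RNA of these samples was not alike. The question named for the series is the effect of PlGF and of IL-6 on such cells.

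The deposited values are log2 levels per probe set, with array medians of 5.47 to 5.51. Arrays of the same group had Pearson's r of 0.994 to 0.995 across genes and arrays of different groups 0.993 to 0.995, and these ranges overlap. One array stood apart before any comparison: Xist, the transcript of the inactive X chromosome, was at 8.38 on PlGFCM replicate 2 and at 3.58 to 3.95 elsewhere. Genes of the Y chromosome read 7.502 (Uty), 7.07 (Kdm5d) and 8.59 (Eif2s3y) on that array, below their ranges of 7.77 to 8.14, 7.42 to 7.77 and 8.90 to 9.14 on the other 5, so their signal was present on all 6. Values without that array are given for each member and pathway gene that passed. The T cell genes Cd3e and Cd4 were at 11.84 to 12.17 and 11.13 to 11.40 over the arrays, and 9 measured T cell markers averaged 10.41 to 10.62. None of them changed by limma in any comparison, and 1 had an unadjusted p under 0.05, between PlGFCM and ConCM (8.74% of all genes).

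IL-10 is a cytokine that restrains inflammation, and in the mouse it is made by several kinds of helper T cell as well as by B cells and myeloid cells. In helper T cells the transcription factor c-Maf, encoded by Maf, binds and activates Il10, while Blimp-1, encoded by Prdm1, and the basic leucine zipper factor Nfil3 also favour its expression. IL-27, IL-6 and IL-21 signal through STAT3 and are known inducers of Il10 in T cells. IL-24 belongs to the same cytokine family, signals through receptors that contain the IL-20 receptor beta chain, and its gene lies near Il10.

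RefSeq windows of 250 bases before a gene's start, on build GRCm38.p6, were matched for 2 of the 7 genes, Prdm1 and Nfil3. They are shown with the window of Socs3, the STAT3 feedback inhibitor whose own values are given further on, so that the sequences beside the gene starts can be read with the levels. All 3 run 5′ to 3′ on the minus strand. Capitals mark letters that match TTCNNNGAA (the STAT motif), TGCTGA (a half-site of Maf), TTANGTAA (an NFIL3 motif) or TGANTCA (the AP-1 motif), each searched on both strands.
Prdm1 window, chr10:44458749-44458998: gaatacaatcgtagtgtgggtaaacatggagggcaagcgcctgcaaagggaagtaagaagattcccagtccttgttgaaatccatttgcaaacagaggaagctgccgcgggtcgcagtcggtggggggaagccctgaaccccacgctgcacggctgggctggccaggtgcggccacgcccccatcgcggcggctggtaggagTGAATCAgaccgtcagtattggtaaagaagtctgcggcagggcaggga
Nfil3 window, chr13:52981040-52981289: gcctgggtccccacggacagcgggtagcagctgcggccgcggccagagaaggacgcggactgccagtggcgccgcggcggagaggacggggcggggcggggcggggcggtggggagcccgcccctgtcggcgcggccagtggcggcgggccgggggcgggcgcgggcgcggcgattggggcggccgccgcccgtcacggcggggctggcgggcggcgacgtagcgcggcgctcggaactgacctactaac
Socs3 window, chr11:117969367-117969616: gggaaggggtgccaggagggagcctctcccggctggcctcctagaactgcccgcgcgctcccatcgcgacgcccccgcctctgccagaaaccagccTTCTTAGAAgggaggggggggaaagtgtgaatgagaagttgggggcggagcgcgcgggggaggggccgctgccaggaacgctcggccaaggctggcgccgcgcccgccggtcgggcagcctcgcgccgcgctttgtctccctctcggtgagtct
The Prdm1 window held 1 match to these looser AP-1 letters, starting 48 bases before the gene start, and none of the other motifs. That match has A at its centre and not C or G. The Nfil3 window, with 81.6% G and C, held none of the 4. The Socs3 window held 1 STAT match, starting 154 bases before the gene start. Of 32851 windows of this length, 7.02% held the STAT letters, 16.1% the Maf half-site, 2.06% the NFIL3 letters and 6.75% the AP-1 letters. Windows were also matched for Il6ra, Fosl2, Eomes, Gzma and Gzmb, the other genes on the pathway lists that passed and had one, and none of these held the STAT letters. Among them Il6ra and Gzmb held the Maf half-site and Gzmb the AP-1 letters. Of the genes named further on for profile or position, Il19, Emp1 and Ctla2a had windows with the STAT letters, so Socs3 was not alone in this. No matches overlapped in the 3 windows shown, and a match describes letters, not binding.

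Il10 and Maf were the members that rose in medium with PlGF. Of the 7 genes 2 rose and none fell between PlGFCM and ConCM, where 0.433% of all genes passed in either direction and 0.352% passed higher. All 7 had a positive difference, and for 6 both PlGFCM arrays lay above both ConCM arrays, which held for 17.3% of all genes. An unadjusted p under 0.05 was reached by 5 of the 7 and by 8.74% of all genes. The median log2 difference of the 7 was 0.38, against -0.014 over all genes tested. In RNA from a mixed population, a change in the number of cells that express a gene and a change in its RNA per cell cannot be told apart.

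Il10 encodes the cytokine itself. Its log2 level was 5.96 and 6.01 on the ConCM arrays, 7.12 and 7.14 on the PlGFCM arrays and 6.33 and 6.83 on the IL6_ConCM arrays. The 3 groups did not overlap, with ConCM lowest, IL6_ConCM between and PlGFCM highest, and the arrays with IL-6 lay farthest from each other. Il10 rose in PlGFCM over ConCM by 1.14 ± 0.15 (SE) on the log2 scale, a 2.21-fold difference with a 95% interval of 1.76 to 2.76 (adjusted p = 0.00908). By the size of the increase it ranked 7 of 22180 genes. Without PlGFCM replicate 2 the difference was 1.13 (adjusted p = 0.127), without PlGFCM replicate 1 it was 1.15 (adjusted p = 0.108) and without ConCM replicate 2 it was 1.17 (adjusted p = 0.0665), so the call was lost while the size stayed close. It passed without ConCM replicate 1 (adjusted p = 0.0455). A fit without an intensity trend gave adjusted p = 0.151.

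With IL-6, Il10 was 0.60 ± 0.15 (SE) above ConCM, or 1.51-fold with an interval of 1.21 to 1.89, and did not pass (adjusted p = 0.290). The difference was 0.85 without IL6_ConCM replicate 1 (adjusted p = 0.0507) and 0.35 without IL6_ConCM replicate 2. Between the treatments Il10 was 0.54 ± 0.15 higher in PlGFCM than in IL6_ConCM, an interval of 0.22 to 0.87, which did not pass either (adjusted p = 0.608). Without PlGFCM replicate 2 this difference was again 0.54 (adjusted p = 0.715), and it was 0.30 without IL6_ConCM replicate 1 and 0.79 without IL6_ConCM replicate 2. The order of the means is thus a description for both neighbouring steps. Here and for all genes that follow, both comparisons with ConCM share its 2 arrays.

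Il24 encodes IL-24, and its level was 5.64 and 5.50 under ConCM, 5.98 and 6.15 under PlGFCM, and 5.73 and 5.61 under IL6_ConCM. Both PlGFCM arrays lay above the other 4, while ConCM and IL6_ConCM overlapped. Levels in ConCM and IL6_ConCM lay near 5.48, the median of all probe sets, and whether Il24 was detected there was not tested. The difference of 0.50 ± 0.13 (SE) between PlGFCM and ConCM, with an interval of 0.22 to 0.77, did not pass (adjusted p = 0.188), nor did that of 0.39 between PlGFCM and IL6_ConCM (adjusted p = 0.863). With IL-6 it was 0.10 above ConCM, with an interval from -0.18 to 0.38 (adjusted p = 0.997). No alternative made a call for Il24 in any of the 3 comparisons.

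**Figure D1:**
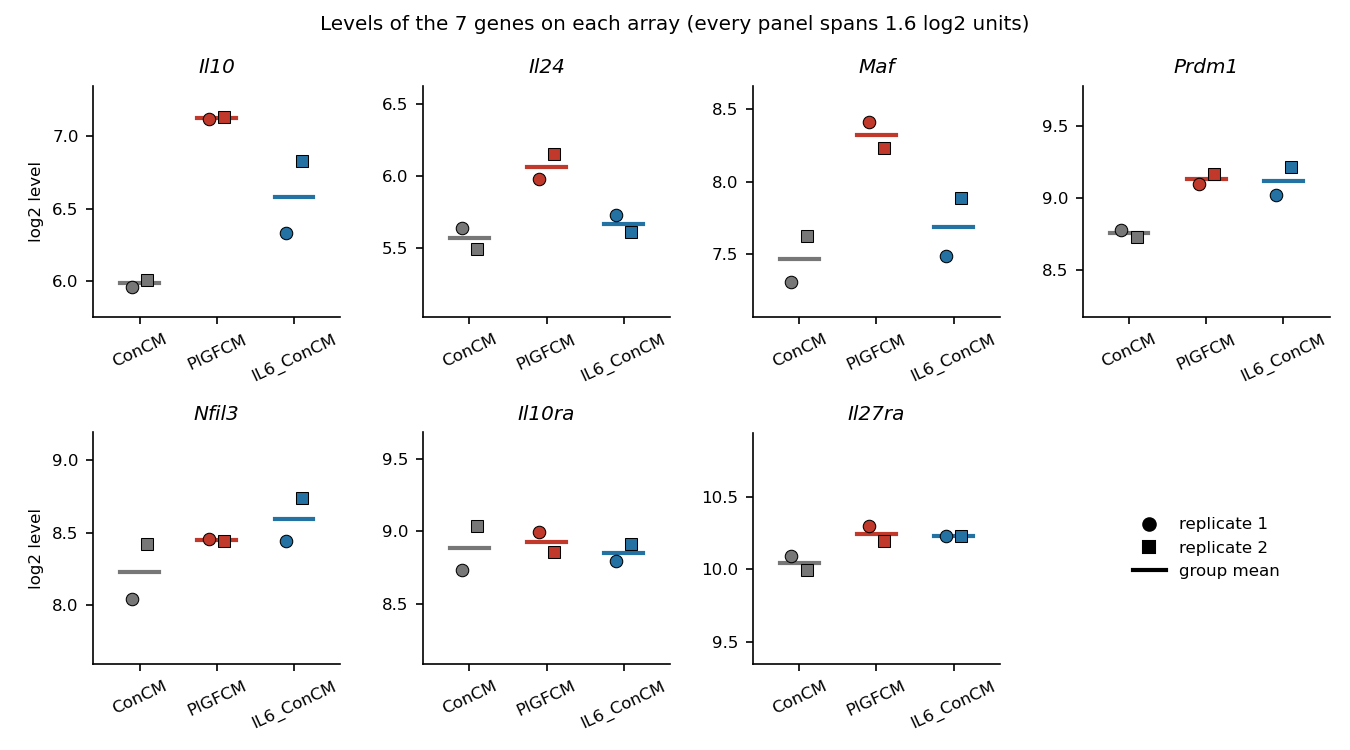
Log2 level (vertical axis) of each of the 7 genes on the 6 arrays, by medium (horizontal axis), with circles for replicate 1, squares for replicate 2 and bars for group means. Il10 runs from 5.96 in ConCM to 7.14 in PlGFCM with no overlap between groups, Maf and Il24 are highest in PlGFCM, and Il10ra overlaps in all groups.

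Among the regulators, Maf was the one that rose in PlGFCM as Il10 did. Maf, the gene of c-Maf, was at 7.31 and 7.62 under ConCM, 8.41 and 8.23 under PlGFCM, and 7.48 and 7.88 under IL6_ConCM. Both PlGFCM arrays were above the other 4, and the IL6_ConCM arrays overlapped those of ConCM. Maf rose by 0.85 ± 0.14 (SE), or 1.81-fold with an interval of 1.45 to 2.25 (adjusted p = 0.0287), and ranked 34 by the size of the increase. The call was lost on leaving out any of the 4 arrays in the comparison, with a difference of 0.95 without PlGFCM replicate 2 (adjusted p = 0.163), 0.76 without PlGFCM replicate 1 (adjusted p = 0.272), 0.70 without ConCM replicate 1 (adjusted p = 0.199) and 1.01 without ConCM replicate 2 (adjusted p = 0.0665). Without an intensity trend its adjusted p was 0.308.

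The second probe set of Maf, which is dimmer and was not used to stand for the gene, read 5.55 and 5.99 under ConCM, 6.87 and 6.61 under PlGFCM, and 5.86 and 6.38 under IL6_ConCM. Its difference between PlGFCM and ConCM was 0.97 and that between IL6_ConCM and ConCM 0.35. Both probe sets had the same order of arrays within each group. Against ConCM, IL-6 gave 0.22 ± 0.14 (SE) at the brighter probe set, with an interval from -0.099 to 0.53 (adjusted p = 0.981). PlGFCM exceeded IL6_ConCM by 0.64, with an interval of 0.32 to 0.95, and did not pass (adjusted p = 0.365).

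**Figure D2:**
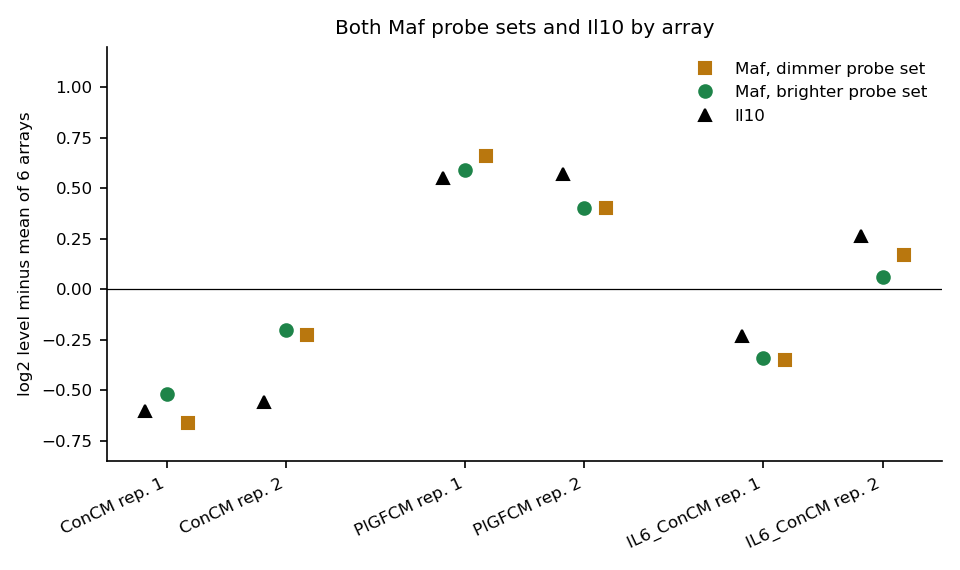
Log2 level minus its mean over the 6 arrays (vertical axis) for both probe sets of Maf and for Il10, by array (horizontal axis). The marks for Maf lie together on every array, highest in PlGFCM and lowest on ConCM replicate 1, and all 3 are higher on IL6_ConCM replicate 2 than on IL6_ConCM replicate 1.

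Prdm1 encodes Blimp-1, a zinc finger repressor that shapes effector lymphocytes. Its level was 8.78 and 8.73 under ConCM, 9.10 and 9.17 under PlGFCM, and 9.02 and 9.22 under IL6_ConCM. All 4 treated arrays lay above both ConCM arrays, and the treatments overlapped each other. Prdm1 was 0.38 ± 0.086 (SE) above ConCM with PlGF medium (adjusted p = 0.113) and 0.36 ± 0.086 with IL-6 (adjusted p = 0.258), and neither passed. Between the treatments it differed by 0.015, with an interval from -0.17 to 0.20.

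Nfil3, whose product also acts in the circadian clock and in innate lymphoid cells, was at 8.04 and 8.42 under ConCM, 8.45 and 8.44 under PlGFCM, and 8.44 and 8.74 under IL6_ConCM. The treated arrays all lay above ConCM, and ConCM replicate 2 lay 0.021 below the lowest PlGFCM array and 0.025 below the lowest IL6_ConCM array. Its mean was highest with IL-6, at 0.36 ± 0.13 (SE) above ConCM (adjusted p = 0.718), and 0.22 above ConCM in PlGFCM (adjusted p = 0.694). PlGFCM and IL6_ConCM overlapped, with a difference of -0.15 and an interval from -0.43 to 0.14.

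Il10ra encodes the ligand-binding chain of the IL-10 receptor. Its level was 8.73 and 9.04 under ConCM, 8.99 and 8.86 under PlGFCM, and 8.80 and 8.91 under IL6_ConCM, so all groups overlapped. Its differences were 0.041 in PlGFCM and -0.030 in IL6_ConCM against ConCM, with intervals from -0.19 to 0.27 and from -0.26 to 0.20 (adjusted p = 0.954 and 1.000). Il27ra encodes the specific chain of the IL-27 receptor. It was at 10.09 and 9.99 under ConCM, 10.30 and 10.19 under PlGFCM, and 10.23 and 10.23 under IL6_ConCM. All 4 treated arrays exceeded ConCM, and the IL6_ConCM arrays lay between those of PlGFCM. The differences from ConCM were 0.20 ± 0.069 (SE) with PlGF medium (adjusted p = 0.377) and 0.19 ± 0.069 with IL-6 (adjusted p = 0.751).

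Over the 7 genes none passed between IL6_ConCM and ConCM by limma, where 0.113% of all genes passed in either direction and 0.0857% higher. An unadjusted p under 0.05 was reached by 4 of the 7, namely Il10, Prdm1, Nfil3 and Il27ra, and by 5.62% of all genes. For these 4 both arrays with IL-6 exceeded both ConCM arrays, which held for 15.7% of all genes, and the median of the 7 differences was 0.22. None passed between PlGFCM and IL6_ConCM by limma, where 0.0316% of all genes passed in either direction, every one of them higher. For Il10, Il24 and Maf the PlGFCM arrays exceeded those of IL6_ConCM and the unadjusted p was under 0.05. Groups so ordered were found for 15.2% of all genes, and an unadjusted p under 0.05 for 4.37%. The median of the 7 was 0.071.

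**Figure D3:**
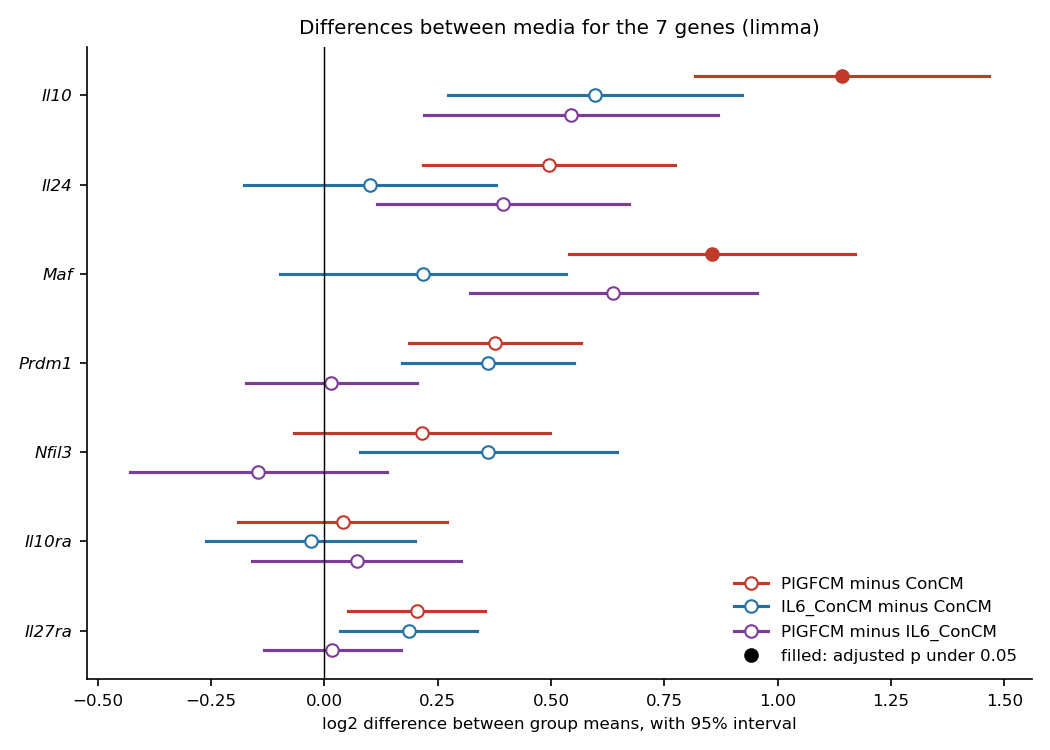
Log2 difference between group means (horizontal axis) with its 95% interval from limma for the 7 genes, in colours for the 3 comparisons, filled where the adjusted p was under 0.05. Il10 at 1.14 and Maf at 0.85 are the filled points, both for PlGFCM minus ConCM, and the intervals of Prdm1 for PlGFCM and for IL6_ConCM against ConCM nearly coincide.

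Within IL6_ConCM the 2 arrays differed in the same sense for most members. Replicate 2 was higher than replicate 1 for Il10, Maf, Prdm1, Nfil3 and Il10ra, nearly level with it for Il27ra and lower for Il24. The median of all probe sets was also higher on replicate 2, at 5.51 against 5.47. How many of all genes were higher there was not counted. Over the 6 arrays Pearson's r of Il10 was 0.93 with Maf, 0.90 with Prdm1, 0.80 with Il24, 0.78 with Il27ra, 0.57 with Nfil3 and 0.26 with Il10ra. These values describe 6 points that fall into 3 groups and share their arrays, and differences between the groups enter each r.

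The genes whose profile was most like that of Il10 were taken from 145 named genes with a range of at least 1 log2 unit over the arrays. They were Il17f, a cytokine gene of Th17 cells, at r = 0.98, Gatm, an enzyme of creatine synthesis, at 0.98, Emp1, an epithelial membrane protein, at 0.96, Ust, a sulfotransferase, at 0.95, and Mmp13, a collagenase, at 0.94. Il17f was at 6.67 and 6.69 under ConCM, 7.80 and 7.64 under PlGFCM, and 7.16 and 7.62 under IL6_ConCM. As with Il10, its IL6_ConCM arrays lay between the other groups. The choice by r over these same arrays favours such a likeness, so it is no separate result. For Il24 the nearest were Ctla2a, a cathepsin inhibitor, at r = 0.99, Ccl3, a chemokine, at 0.98, Ctsw, a protease, at 0.96, Cpt1a, the carnitine shuttle enzyme, at 0.95, and Aqp3, a water and glycerol channel, at 0.94. Ctla2a was at 6.75 and 6.49 under ConCM, 7.56 and 7.77 under PlGFCM, and 7.03 and 6.79 under IL6_ConCM, though its probe set may also bind the related Ctla2b. No gene was on both lists of 5.

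Il10 and Il24 lie on mouse chromosome 1 with Il19 and Il20 between them. Among the 14 protein-coding genes from 5 before to 5 after that span, in RefSeq order, Il10 was the one that rose in PlGFCM over ConCM. Fcmr, the Fc receptor for IgM and the neighbour of Il24, was at 5.12 and 5.34 under ConCM, 5.89 and 5.83 under PlGFCM, and 5.67 and 5.60 under IL6_ConCM. Its groups did not overlap and had the same order as those of Il10, at 0.63 above ConCM with PlGF medium (adjusted p = 0.0729) and 0.40 with IL-6 (adjusted p = 0.597). Il19 was 0.30 above ConCM in PlGFCM (adjusted p = 0.660) and 0.47 in IL6_ConCM (adjusted p = 0.695), and Il20 -0.12 and -0.050 (adjusted p = 0.877 and 1.000). Fcmr in ConCM, and Il19 and Il20 on every array, lay below 5.48, the median of all probe sets. Mapkapk2, a kinase downstream of p38 on the other side of Il10, was at 0.14 and 0.057. The remaining genes, Yod1, AA986860, Fcamr, Pigr, Dyrk3, Eif2d, Rassf5 and Ikbke, had adjusted p of 0.770 or more in PlGFCM against ConCM.

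**Figure D4:**
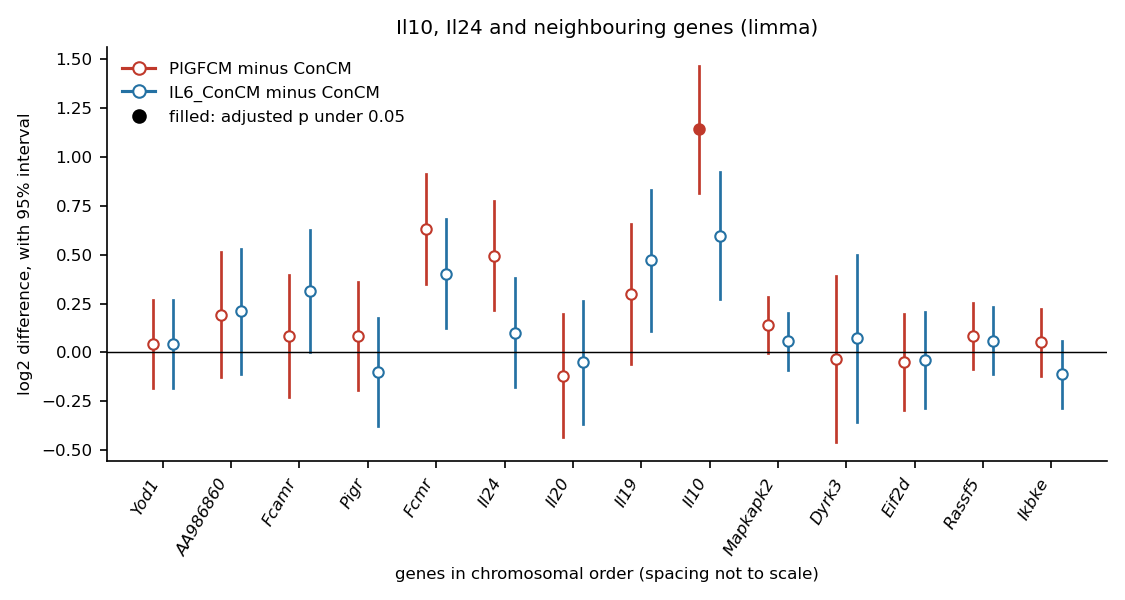
Log2 difference from ConCM (vertical axis) with its 95% interval for 14 genes in chromosomal order (horizontal axis, not to scale), for PlGFCM and IL6_ConCM, filled where the adjusted p was under 0.05. Il10 at 1.14 is the filled point, and Fcmr at 0.63 and Il24 at 0.50 come next for PlGFCM.

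The rest of the IL-10 pathway was read from lists chosen with earlier results known. Of 7 cytokine genes of the IL-10 family Il10 was the one that rose in PlGFCM, where 0.352% of all genes rose. The list's median was -0.12. None passed with IL-6 by limma, where 2 had an unadjusted p under 0.05, Il10 and Il19 (5.62% of all genes). Of 7 receptor chains of the family none passed by limma in any comparison. The sole unadjusted p under 0.05 was that of Il10rb between PlGFCM and IL6_ConCM (4.37% of all genes). Their differences from ConCM ran from -0.19 to 0.096 in PlGFCM and from -0.12 to 0.064 in IL6_ConCM. In PlGFCM the smallest p was that of Il22ra2, the soluble IL-22 binding protein, at -0.19 (adjusted p = 0.797). Il10rb, the shared second chain of the IL-10 receptor, had the smallest p in the other comparisons, at -0.12 with IL-6 (adjusted p = 0.981) and 0.18 between PlGFCM and IL6_ConCM (adjusted p = 0.998).

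Of 16 cytokines and receptors known to induce Il10 in T cells, 1 rose in PlGFCM and none passed with IL-6 by limma. Over all genes 0.433% and 0.113% passed in either direction. An unadjusted p under 0.05 was found for 9 and 5 of the 16 (8.74% and 5.62% of all genes). The list's medians were 0.16 and 0.0066, against -0.014 and -0.0091 over all genes. Il6ra, the IL-6 receptor chain, rose by 0.41 ± 0.069 (SE, adjusted p = 0.0285) in PlGFCM and was 0.36 above ConCM with IL-6 (adjusted p = 0.101). Il21r, the IL-21 receptor, was at 10.32 and 10.03 under ConCM, 10.63 and 10.61 under PlGFCM, and 10.66 and 10.69 under IL6_ConCM. All treated arrays were above ConCM, and its differences of 0.45 and 0.50 missed the threshold (adjusted p = 0.0527 and 0.0586), though they passed in 5 and 4 of 16 alternatives. In PlGFCM these were quantile normalization (adjusted p = 0.0458), the filters at the median and 25th percentile of levels (0.0282 and 0.0355), the robust prior (0.0476) and the fit without ConCM replicate 1 (0.59, adjusted p = 0.00965). With IL-6 they were both filters (adjusted p = 0.0316 and 0.0378), array weights (0.0471) and the fit without ConCM replicate 1 (0.64, adjusted p = 0.00622). Il6 itself had the smallest p between the treatments, at 5.80 in PlGFCM, 4.86 in IL6_ConCM and 5.44 in ConCM. Its difference of 0.94 between PlGFCM and IL6_ConCM did not pass (adjusted p = 0.107). The median of all probe sets was 5.48. Of 13 measured genes of JAK-STAT signalling and feedback, 1 rose in PlGFCM and none passed with IL-6 by limma (0.433% and 0.113% of all genes passed). An unadjusted p under 0.05 was found for 6 and 4 of the 13 (8.74% and 5.62% of all genes). The one that rose was Socs3, the feedback inhibitor, at 0.49 ± 0.090 (SE, adjusted p = 0.0442) in PlGFCM and 0.40 with IL-6 (adjusted p = 0.217). Between the treatments the smallest p was that of Stat5a, at 0.34 (adjusted p = 0.486).

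Of 28 measured transcription factors linked to Il10 in T cells, 3 rose in PlGFCM and 1 fell, and with IL-6 1 fell. Over all genes 0.433% and 0.113% passed in either direction. By limma 13 and 11 of the 28 had an unadjusted p under 0.05 (8.74% and 5.62% of all genes). The list's medians were 0.14 and 0.046, against -0.014 and -0.0091 over all genes. Besides Maf, Ahr, the aryl hydrocarbon receptor that acts with c-Maf at Il10 in the mouse, rose by 0.85 ± 0.11 (SE, adjusted p = 0.00947), and Fosl2, an AP-1 factor, rose by 0.55 ± 0.083 (SE, adjusted p = 0.0190). Eomes, a factor of cytotoxic and type 1 regulatory (Tr1) cells, fell by 1.34 ± 0.17 (SE) in PlGFCM (adjusted p = 0.00908) and by 1.44 ± 0.17 with IL-6 (adjusted p = 0.00804). Ahr was 0.31 above ConCM with IL-6 (adjusted p = 0.725) and 0.54 higher in PlGFCM than in IL6_ConCM (adjusted p = 0.262).

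Of 13 genes of Tr1 cells and co-inhibitory receptors, 1 rose and 1 fell in PlGFCM, and 1 rose with IL-6. Passing was found for 0.433% and 0.113% of all genes. By limma 7 and 2 of the 13 had an unadjusted p under 0.05 (8.74% and 5.62% of all genes). In PlGFCM 10 of the 13 had a positive difference and 3 a negative one. Those that passed were granzymes, a contrast with the receptors that rests on the threshold. Gzma, the gene of granzyme A, rose by 0.93 ± 0.13 (SE, adjusted p = 0.0123) in PlGFCM and by 1.12 ± 0.13 with IL-6 (adjusted p = 0.00692). Gzmb, the gene of granzyme B, fell by 0.81 ± 0.10 (SE, adjusted p = 0.00908) in PlGFCM and was at -0.077 with IL-6 (adjusted p = 0.997), and the difference of -0.73 between the treatments did not pass (adjusted p = 0.0613). Of 10 measured relatives of Maf and Nfil3 in their leucine zipper families, Maf was the one that rose in PlGFCM (0.352% of all genes rose). The list's median there was 0.012. None of the genes on these lists passed between PlGFCM and IL6_ConCM by limma, where 2 cytokines, 1 receptor chain, 4 inducers, 3 JAK-STAT genes, 7 transcription factors, 4 Tr1 genes and 1 leucine zipper relative had an unadjusted p under 0.05, against 4.37% of all genes. The lists share some members.

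Most calls on these lists were lost in fits with 1 array fewer, while the differences stayed closer to those above. Over the fits that left out 1 array, the differences in PlGFCM ran from 0.84 to 0.87 for Ahr, 0.47 to 0.63 for Fosl2, 0.37 to 0.45 for Il6ra, 0.40 to 0.59 for Socs3, 0.81 to 1.04 for Gzma, -0.91 to -0.70 for Gzmb and -1.59 to -1.10 for Eomes. Over all genes the calls went from 96 to between 12 and 62 when 1 of the 4 compared arrays was left out. Without PlGFCM replicate 2 the differences from ConCM were 0.37 for Il6ra (adjusted p = 0.251), 0.59 for Socs3 (adjusted p = 0.146), 0.85 for Ahr (adjusted p = 0.132) and 0.63 for Fosl2 (adjusted p = 0.104). Those of Eomes, Gzma and Gzmb were -1.27, 0.88 and -0.75 without it (adjusted p = 0.136, 0.143 and 0.136). Leaving out PlGFCM replicate 1 also left none of the 7 past the threshold, with adjusted p of 0.0799 to 0.341. Without ConCM replicate 2, Il6ra, Socs3, Ahr, Fosl2 and Gzma did not pass (adjusted p = 0.212, 0.278, 0.0741, 0.160 and 0.118), and without ConCM replicate 1, Il6ra, Socs3 and Gzmb did not (adjusted p = 0.0777, 0.0729 and 0.0536). With IL-6, Eomes did not pass without IL6_ConCM replicate 2 (adjusted p = 0.0552), nor Gzma without ConCM replicate 2 (adjusted p = 0.0683). Without an intensity trend none of them passed, with adjusted p of 0.127 to 0.397 in PlGFCM.

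**Figure D5:**
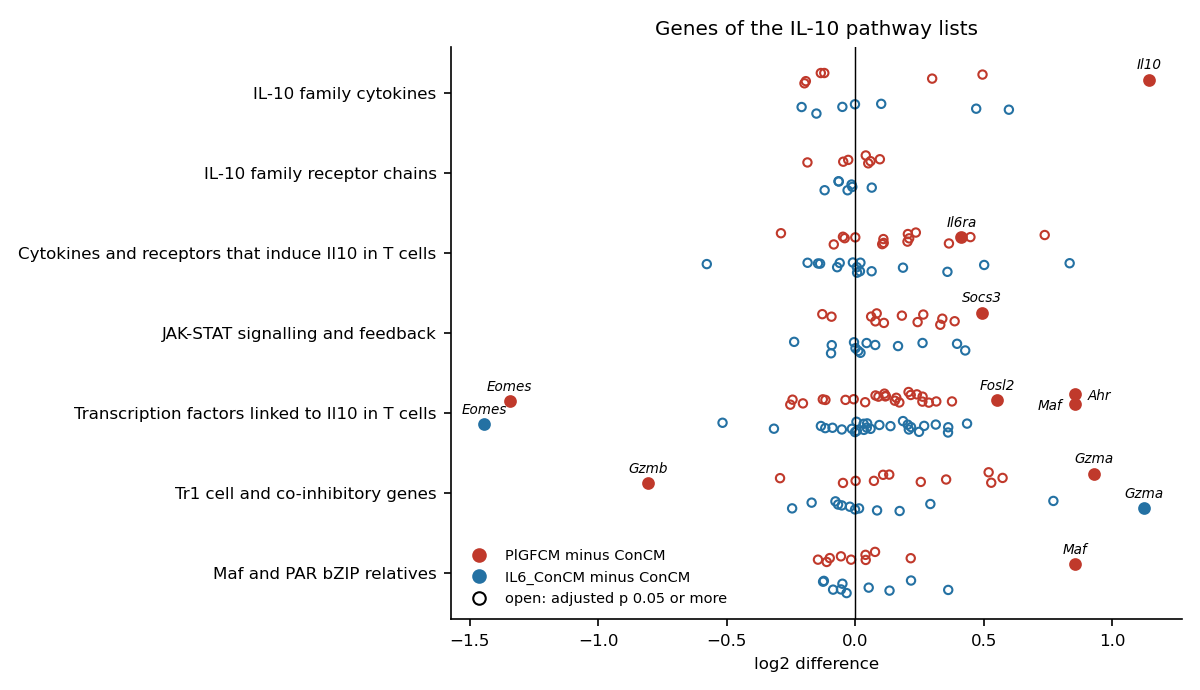
Log2 difference from ConCM (horizontal axis) for each measured gene of 7 pathway lists (vertical axis, 1 row a list), for PlGFCM and IL6_ConCM, with filled and named points for an adjusted p under 0.05. The receptor chains stay between -0.19 and 0.096, and the transcription factors hold Maf and Ahr at 0.85 and Eomes at -1.34 for PlGFCM.

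Because B cells and myeloid cells also make IL-10, their markers were read beside it. The mean log2 level of 12 myeloid markers was 5.966 and 5.997 in ConCM, 6.07 to 6.09 in PlGFCM and 5.95 to 5.99 in IL6_ConCM. It was thus highest where Il10 was highest. In this mean the arrays of IL6_ConCM and ConCM overlapped, whereas in Il10 those of IL6_ConCM lay above ConCM. Of the 12, 7 had a positive difference between PlGFCM and ConCM, none rose and 1 fell, Clec7a, the receptor dectin-1, by 0.60 (adjusted p = 0.0383). An unadjusted p under 0.05 was reached by 4 of the 12, Clec7a and, with positive differences, Cd14 and the macrophage genes Adgre1 (0.38) and Mpeg1 (0.30). Cd14, a lipopolysaccharide co-receptor of monocytes, singled out after its values were seen, was at 6.25 and 6.26 under ConCM, 6.95 and 6.91 under PlGFCM, and 6.01 and 6.45 under IL6_ConCM, and its difference of 0.67 between PlGFCM and ConCM did not pass (adjusted p = 0.0806). The mean of 10 measured B cell markers was 6.58 to 6.64 in ConCM, 6.54 to 6.59 in PlGFCM and 6.60 to 6.62 in IL6_ConCM, with 6 positive, none that rose and 2 that fell in PlGFCM. These were Ms4a1, the gene of CD20, by 0.84 (adjusted p = 0.0125), and Fcer2a, the low-affinity IgE receptor, by 0.86 (adjusted p = 0.0206). With an unadjusted p under 0.05 were 5 of the 10, the others being Cd79b at 0.33, Pax5 at 0.31 and Bank1 at -0.29. Between PlGFCM and ConCM 0.433% of all genes passed in either direction and 8.74% had an unadjusted p under 0.05. These shares apply to each marker list here. The markers named were also taken after their values were seen, and fits of Clec7a, Ms4a1 and Fcer2a without single arrays are not given here. Dendritic cell markers, 7 measured, averaged 6.22 to 6.31, 6.20 to 6.32 and 6.11 to 6.28 in these groups, and 9 markers of NK and CD8 T cells 5.79 to 5.80, 5.76 to 5.87 and 5.80 to 5.87, with none passing by limma and 2 of the NK and CD8 markers at an unadjusted p under 0.05 in PlGFCM. The log2 scale of the array has no level of 0. The part of these cells in the differences of Il10 and the other members was not tested.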

How the data were processed

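Labelled RNA of 6 samples was measured on arrays after an Affymetrix whole-transcript kit, per the labels' protocols. For 41345 probe sets the authors deposited log2 levels. The submitters' processing notes name Transcriptome Analysis Console. Which version, background correction, normalization and genome build lie behind the values is not given in the sources used here. That the scale is log2 follows from their range. Of the probe sets, 23521 had 1 gene symbol, 1814 had several and 16010 were not listed. The brightest probe set per gene gave 22180 genes. Gene IDs of 23328 probe sets were found in RefSeq, which changed 0 symbols.

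Groups follow the sample titles. The 3 comparisons were fitted with limma 3.58.1 in R 4.3.3 (lmFit and eBayes with an intensity trend, all 6 arrays, 3 residual and a median of 8.14 prior degrees of freedom), and Benjamini-Hochberg adjustment ran over all 22180 genes. Genes rose, fell or passed at an adjusted p under 0.05. An exact permutation test of 2 arrays against 2 cannot give a two-sided p below 0.333. Arrays give no read depth, so their number limits the precision. The fit was tested on simulated data.

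The members and lists were chosen with earlier results of these data known. Genes named are the 7 members, from each list up to 4 per comparison that passed with the smallest p (or the 1 with the smallest p), the 5 most like Il10 and Il24 by Pearson's r, and 5 neighbours on either side. Alternatives were quantile normalization, median subtraction, filters at the median and 25th percentile, mean of probe sets, a prior without the trend, a robust prior, compared groups alone, array weights, a replicate block and each array left out. Tables were made with Python 3.11.15.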

Additional observations from a re-analysis of the deposited data

How the results depend on the processing

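Il10 passed between PlGFCM and ConCM in 12 of 16 alternatives, with a log2 difference of 1.11 to 1.17 and adjusted p of 0.00125 to 0.151, and Maf in 10 of 16, with 0.70 to 1.01 and adjusted p of 0.0106 to 0.308. The count of members that passed there was 2, and 0 without an intensity trend, 1 (Il10) with the replicate block, and 0 to 2 when single arrays were left out. In the other comparisons it was 0 in all 16. Il24, Prdm1, Nfil3, Il10ra and Il27ra passed in none of the 16 in any comparison. Whether replicate numbers pair the samples is not stated in the labels. Deviations from group means correlated at -0.039 (ConCM and PlGFCM), 0.11 (ConCM and IL6_ConCM) and 0.033 (PlGFCM and IL6_ConCM). Such correlations cannot settle whether samples were paired. Xist was at 8.38 on PlGFCM replicate 2, 3.95 on ConCM replicate 2 and 3.86 on IL6_ConCM replicate 2. The samples numbered 2 were thus not alike in it. The replicate block is given here alone. Under it Il10 kept its call (adjusted p = 0.0175) and Maf did not (adjusted p = 0.0545), Il6ra and Socs3 lost theirs (adjusted p = 0.0550 and 0.0750), and 62, 16 and 5 genes passed. Over all genes 96 passed between PlGFCM and ConCM, 25 between IL6_ConCM and ConCM and 7 between PlGFCM and IL6_ConCM. Without an intensity trend these were 6, 1 and 0, and with levels at or above the median 174, 53 and 10. The second count was also 53 with levels at or above the 25th percentile, 47 with array weights and 12 with the compared groups alone. Leaving out single arrays gave 12 (without PlGFCM replicate 2) to 107, 2 (without ConCM replicate 2) to 41 (without ConCM replicate 1), and 0 (without PlGFCM replicate 2 or IL6_ConCM replicate 2) to 5. Socs3 also lost its call with array medians subtracted (adjusted p = 0.0538) and with the mean of its probe sets (adjusted p = 0.0667). Gzmb passed between the treatments in 4 of 16. Filters leave fewer genes to adjust over and left-out arrays fewer samples; other causes were not tested. Values that turned sign had not passed. With array medians subtracted Yod1 was at 0.0070 for PlGFCM minus IL6_ConCM. When single arrays were left out the log2 differences ran, for PlGFCM minus ConCM, AA986860 -0.0049 to 0.39, Dyrk3 -0.31 to 0.24, Fcamr -0.030 to 0.20, Ikbke -0.014 to 0.12 and Il10ra -0.11 to 0.19. They ran, for IL6_ConCM minus ConCM, Dyrk3 -0.21 to 0.35, Eif2d -0.20 to 0.12, Gzmb -0.20 to 0.047, Il10ra -0.18 to 0.12, Il22ra2 -0.12 to 0.090 and Stat5a -0.053 to 0.14. They ran, for PlGFCM minus IL6_ConCM, AA986860 -0.089 to 0.055, Dyrk3 -0.29 to 0.079, Eif2d -0.17 to 0.15, Eomes -0.11 to 0.31, Il19 -0.38 to 0.036, Il20 -0.15 to 0.0080, Il27ra -0.035 to 0.070, Nfil3 -0.30 to 0.0032, Prdm1 -0.084 to 0.11, Rassf5 -0.032 to 0.077 and Yod1 -0.038 to 0.036.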
